A study of Mus musculus with 12 samples.

Results

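The regions described here were exonic regions called from the LARP1 immunoprecipitation of control naive CD4 T cells. They were not called at the same place in Rnmt cKO naive CD4 T cells. A region was included if it was in the control list, was not on chromosome Y, overlapped no Rnmt cKO region by 1 nt or more on the same strand, and overlapped an exon of a GENCODE M21 transcript (GRCm38, the build named mm10 in the study) on the same strand. This gave 377 regions of 3189 in the control list and of 5556 in both lists. They lay in 357 genes. Of the 826 exonic control regions they were 45.6%, and of all control regions 73.7% overlapped no Rnmt cKO region. The regions were chosen by the calls in both lists, that is, by a call in the control list and the lack of an overlapping one in the Rnmt cKO list. Their number, their scores and their distance to Rnmt cKO regions are therefore descriptions.

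LARP1 eCLIP was carried out on CD4 T cells from lymph nodes of female mice, labelled naive. The control mice were Rnmt fl/fl CD4cre - and the Rnmt cKO mice were Rnmt fl/fl CD4cre +, and the LARP1 antibody, the ultraviolet crosslinking and the floxed Rnmt alleles were common to both. The Cd4 promoter drives Cre from the double positive thymocyte stage onwards, so that Rnmt was lost during T cell development and not acutely, and an effect of Cre itself cannot be told apart from the loss of Rnmt. Ages and the number of mice per library are not given in the sources used here. Each genotype gave 1 LARP1 immunoprecipitation library, a difference between the lists has no replicate check, and no p-value is given. The series held 12 libraries, of which only the LARP1 lists of the main experiment were used.

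LARP1 binds the 7-methylguanosine cap and the adjoining 5′ terminal oligopyrimidine (TOP) motif, a C followed by a run of pyrimidines at the start of the mRNAs that encode the translation machinery. RNMT is the methyltransferase that completes that cap. In eCLIP, ultraviolet light joins protein to RNA, the protein is immunoprecipitated, and cDNAs end next to the crosslinked base. PureCLIP is a hidden Markov model that calls crosslink sites from these ends and their enrichment, and neighbouring sites were joined into regions.

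Each region carries a score, the sum over its sites of how strongly PureCLIP preferred its call. The score depends on the model of its own library, so it was ranked within the control list, with 100 as the highest percentile. The sequencing depth behind the lists is unknown. The 95% Wilson intervals in parentheses cover counting error over regions only. An exact score occurring 20 or more times in its list was found in 34.2% of control regions and in 1.48% of Rnmt cKO regions, and in 37 of the 377 regions described. Exonic control regions were found in 4 of 14 T cell marker genes. The 6 genes listed for B cells, 2 for CD8 T cells and 5 for myeloid cells had 0 exonic regions in either list. These counts are of called regions in short gene lists, so they cannot check the cell type label. Of the 4 erythroid genes 1 had an exonic control region.

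The sequences show 2 of the kinds of place at which these regions lay. Windows of 30 nt around the first base of a region, or fewer where the transcripts and promoters end, were read on the sense strand. The first set shows 5′ UTR regions and the start of the non-coding RNA Snhg1, with the called bases in capitals. They are shown because the pyrimidines around a transcript start are what LARP1 is known to bind. The set is a selection and not a ranking. Fau, with a score of 31.9 and a called A at 95 nt from the nearest start, is left out. A C followed by 4 pyrimidines was in 43 of all 67 5′ UTR windows.
Imp3 (chr9:56937472-56937501, plus strand): tttcaacgtattcccTTTCtcccgcattct
Taf1d (chr9:15306251-15306280, plus strand): gccgggagcgctcttTTcgacgcggcggaa
Fnbp1 (chr2:31141940-31141969, minus strand): gcttcctcgggccatTTtgctccgcgcgga
Cs (chr10:128337790-128337819, plus strand): ctcagccgcctccttTCaaccttgtccgcc
Rpl5 (chr5:107900556-107900585, plus strand): cgtacgtgactccggTCtttttccccctta
Cd3d (chr9:44981774-44981803, plus strand): ccccactcttcctttTtctgaatacccatg
Snhg1 (chr19:8723476-8723505, plus strand): ttcttgtcggcctcaTTtttccttgttcgg

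The second set shows regions from unrelated genes and transcript classes whose windows held pieces of 1 and the same run of letters, with those letters in capitals. It was chosen after the values were seen.
Cwc22, 5′ UTR (chr2:77946175-77946204, minus strand): ccgggaaagggaactGACGCTCTTCCGgta
Ak7, retained intron (chr12:105747352-105747381, plus strand): gccaggcggcccagaGCTCTTCCGATCTgg
Gm38077, also in Mrpl3 (chr9:105064790-105064819, plus strand): tctgtgactccacggGCTCTTCCGATCTta
1700027A15Rik, antisense RNA (chr1:73015738-73015764, plus strand): tttcctacttttcagGACGCTCTTCCG
Helz2, CDS (chr2:181233926-181233955, minus strand): gtgcctgcaaccttgACGACGCTCTTagtg
Otulinl, CDS (chr15:27664716-27664745, minus strand): agggcctttgtgatgACGACGCTCTctcct
Cartpt, CDS (chr13:99899980-99900009, minus strand): tcaagagtaaacgcaTTCCGATCTacgaga
Penk, CDS (chr4:4134176-4134205, minus strand): agacaccttggccaactccTCCGATCTgct

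The control regions without an Rnmt cKO counterpart were mostly weak and narrow. Their median score was 3.13, at percentile 31.7 of the control list, whereas the 449 exonic control regions shared with the Rnmt cKO list had a median of 31.3 at percentile 79.8. Only 100 of the 377 scored above the median of the control list, which was 8.34. In 345 of the 377 there was a single crosslink site, a share of 91.5% (88.3 to 93.9%), whereas 247 of the 449 shared regions were of this kind. Nevertheless 5 of the 377 scored above 100, and all 5 held the letter run. These were Cwc22, Ak7, Gm38077, 1700027A15Rik and Helz2, and the plot of scores by class shows them above the rest.

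**Figure D1:**
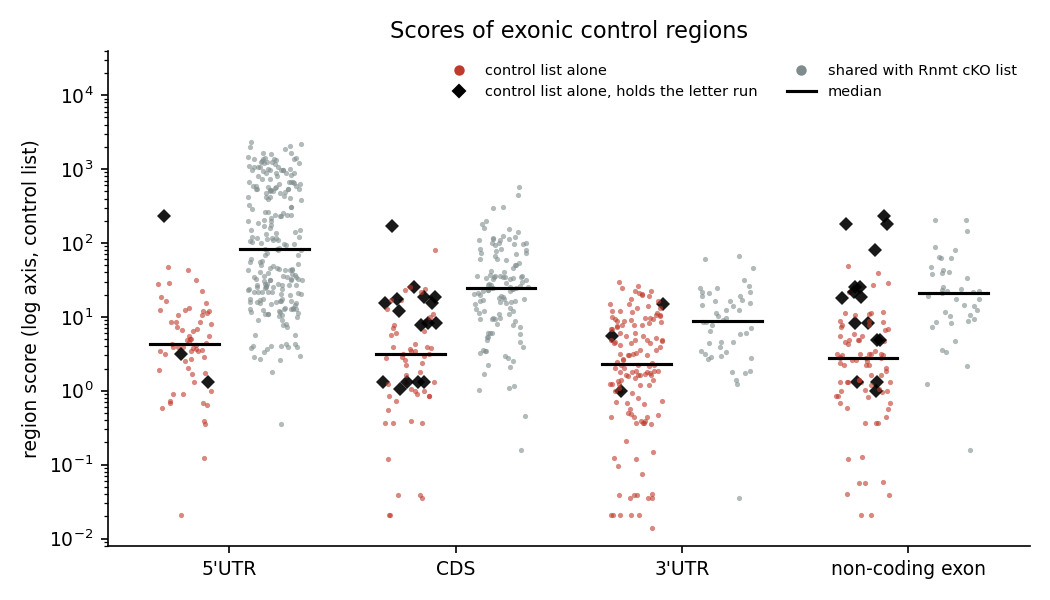
Score of each exonic control region (log axis) by transcript class, for the 377 regions of the control list alone and the 449 shared with the Rnmt cKO list, with horizontal bars at the medians. Black diamonds mark the 38 regions of the control list alone that held 8 letters or more of the run, among them the 5 with scores above 100.

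To find where in transcripts these regions lay, each was classed by the exons it touched. Where transcripts disagreed, a 5′ UTR took precedence over CDS, CDS over 3′ UTR and 3′ UTR over non-coding exons. The 3′ UTR was the largest class, with 140 regions or 37.1% (32.4 to 42.1%), followed by 99 in non-coding exons or 26.3% (22.1 to 30.9%), 71 in the CDS or 18.8% (15.2 to 23.1%) and 67 in 5′ UTRs or 17.8% (14.2 to 21.95%). This order rested on single-site regions, which were 134 of the 140 in 3′ UTRs. With at least 2 crosslink sites in both lists 44 regions were in the control list alone and 50.0% of them were in 5′ UTRs, and with scores above the list median 29.2% of 130 were. Among shared regions the 5′ UTR held 52.3% (47.7 to 56.9%) and the 3′ UTR 10.7% (8.16 to 13.9%). The exonic regions of the Rnmt cKO list alone, which were 914 of 1364 or 67.0% of that list's exonic regions, were in 3′ UTRs in 39.8% (36.7 to 43.0%) and in 5′ UTRs in 12.7% (10.7 to 15.0%). The regions of either list alone thus had a similar share in 3′ UTRs, with overlapping intervals. Non-coding exons were 16.5% (14.3 to 19.1%) of the Rnmt cKO list alone, below the interval of the control list alone.

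**Figure D2:**
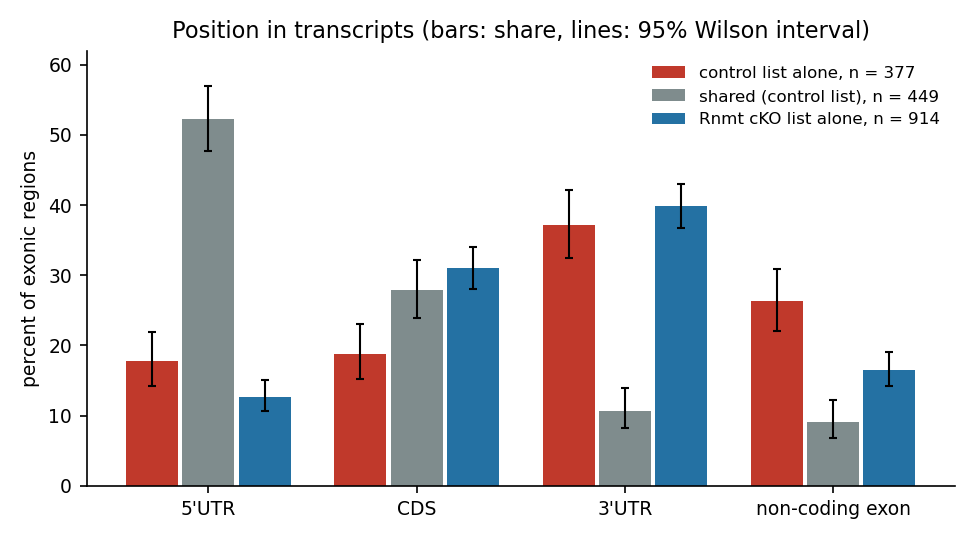
Share of exonic regions in each transcript class (percent) for the control list alone, the shared regions and the Rnmt cKO list alone, with 95% Wilson intervals. The 5′ UTR bar is 52.3% for shared regions and 17.8% for the control list alone.

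A run of letters was found in many windows of the control list alone. The commonest word of 8 letters in the 377 windows was TCCGATCT, which occurred in 28 of them, in 0 of the 449 shared windows and in 0 of the 914 windows of the Rnmt cKO list alone. Words that overlapped it were joined as long as most windows carried the same next letter, which gave ACGACGCTCTTCCGATCT. Of the 377 windows 38 held 8 letters or more of this run, a share of 10.1% (7.43 to 13.5%), and 27 held 9 or more. Because the run was assembled from these windows, that share is a description. Among shared windows 9 held 8 letters, all in 5′ UTRs, and 0 held 9. Among the windows of the Rnmt cKO list alone there were 0 of 914, which allows a share of up to 0.328%. Of 30 nt tiles over the basic transcripts of the annotation, 0.193% held 8 letters or more. In the other groups of windows the commonest words were TCTCTTTC, in 15 of the shared windows, and TTTTTTTT, in 84 windows of the Rnmt cKO list alone.

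Other measures of the regions with the run, which were not used to find it, were set beside those of the other 339. Their median score was 10.1, against 2.86. All 38 had a single crosslink site, as did 307 of the other 339. The run began at or after the first base of the region in 37 of 38. A score repeated 20 or more times was carried by 20 of the 38 and by 17 of the 339. Of the 38 regions 0 lay in a gene with an exonic Rnmt cKO region, which allows a share of up to 7.89%, whereas 127 of the 339 did, a share of 37.5%. By class, the run was in 16 of 71 CDS regions or 22.5% (14.4 to 33.5%), 16 of 99 in non-coding exons or 16.2% (10.2 to 24.7%), 3 of 67 in 5′ UTRs or 4.48% (1.53 to 12.4%) and 3 of 140 in 3′ UTRs or 2.14% (0.731 to 6.11%). The run is known as the end of a primer that is common to Illumina libraries. The oligonucleotides of these libraries were not analysed here, and the part of priming in these regions was not tested.

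The highest scores of the CDS and of non-coding exons came mostly from regions with the run. The highest score of all was that of Cwc22, a splicing factor that recruits the exon junction complex, at 230 and 0 nt from the nearest transcript start, with 12 letters of the run. Ak7, an adenylate kinase, had 229 in a retained intron. Gm38077, whose exon overlaps that of the mitochondrial ribosomal protein gene Mrpl3, had 183, and the antisense RNA 1700027A15Rik had 182. In the CDS, Helz2, a helicase and nuclear receptor coactivator, had 171, and Otulinl had 25.02 with 10 letters of the run. The long non-coding RNA 5033428I22Rik had 80.4 with 11 letters. Of the highest CDS and non-coding regions without 8 letters of the run, the processed pseudogene Gm13456 had 48.9 and Nsa2, which acts in large subunit assembly, had 23.5. Cops7b, a subunit of the COP9 signalosome, had 25.7, a score found in 35 control regions, with 6 letters of the run before the exon ended.

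Coding sequences of genes best known from neurons were also among the regions with the run. They are named here after their values were seen. Penk and Cartpt, both precursors of neuropeptides, each had a score of 15.3, a value found in 78 control regions. Shisa6, an auxiliary protein of glutamate receptors, and Bhlhe22, a transcription factor, each had 18.8, a value found in 51 control regions. Each of these regions was 1 site with 8 to 10 letters of the run, and the nearest Rnmt cKO region was at least 160593 nt away.

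In 5′ UTRs, the regions of the control list alone lay near transcript starts, as did the shared regions. Their first base was within 50 nt of an annotated start in 54 of 67, or 80.6% (69.6 to 88.3%), against 206 of 235 shared regions, or 87.7% (82.8 to 91.3%), and 76 of 116 of the Rnmt cKO list alone, or 65.5% (56.5 to 73.5%). Within 5 nt the counts were 23 of 67, or 34.3%, and 103 of 235 shared regions, or 43.8%. The median distance, on either side, was 16 nt for the control list alone, 8 nt for shared regions and 20 nt for the Rnmt cKO list alone. The scores of these 67 regions were the highest by class median, at 4.29, but shared 5′ UTR regions had a median of 83.6.

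**Figure D3:**
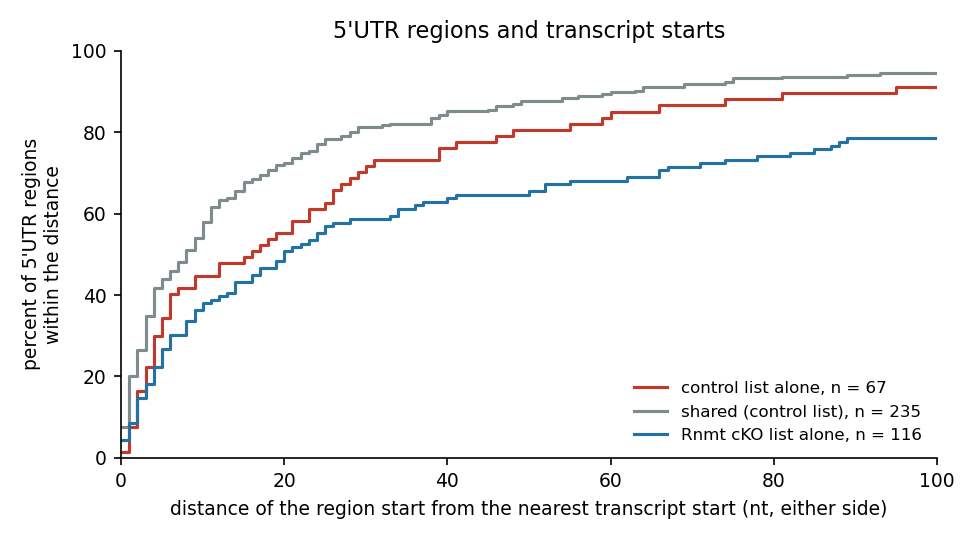
Percent of 5′ UTR regions whose first base lay within a given distance (nt, either side) of the nearest annotated transcript start, for the control list alone, shared regions and the Rnmt cKO list alone. At 50 nt the curves reach 80.6%, 87.7% and 65.5%.

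The letters around these 5′ UTR regions were rich in pyrimidines. Over 15 nt centred on the first base, C and T made up 67.8% ± 16.8 (SD over 67 regions), against 76.8% ± 13.6 in 235 shared regions and 64.0% ± 19.0 in 116 of the Rnmt cKO list alone. A C followed by 4 pyrimidines was in 43 of the 67 windows, or 64.2% (52.2 to 74.6%), in 82.6% (77.2 to 86.9%) of shared windows and in 47.4% (38.6 to 56.4%) of the Rnmt cKO list alone. It was in 19.0% of 15 nt tiles over annotated 5′ UTRs. At single positions, 67.7% of the 65 windows read there had a C at 4 nt before the first base, and 74.6% of 67 had a T at 1 nt before it. The shared regions had nearly the same C share at that place, 65.7%, and 67.1% T at 1 nt before the first base. The T at 1 nt before the first base was not particular to 5′ UTRs. In the control list alone it was in 63.8% of CDS, 78.6% of 3′ UTR and 58.8% of non-coding windows, and in 83.3% of shared CDS windows. The window of Cd3d above shows the C, the T tract and the called T.

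**Figure D4:**
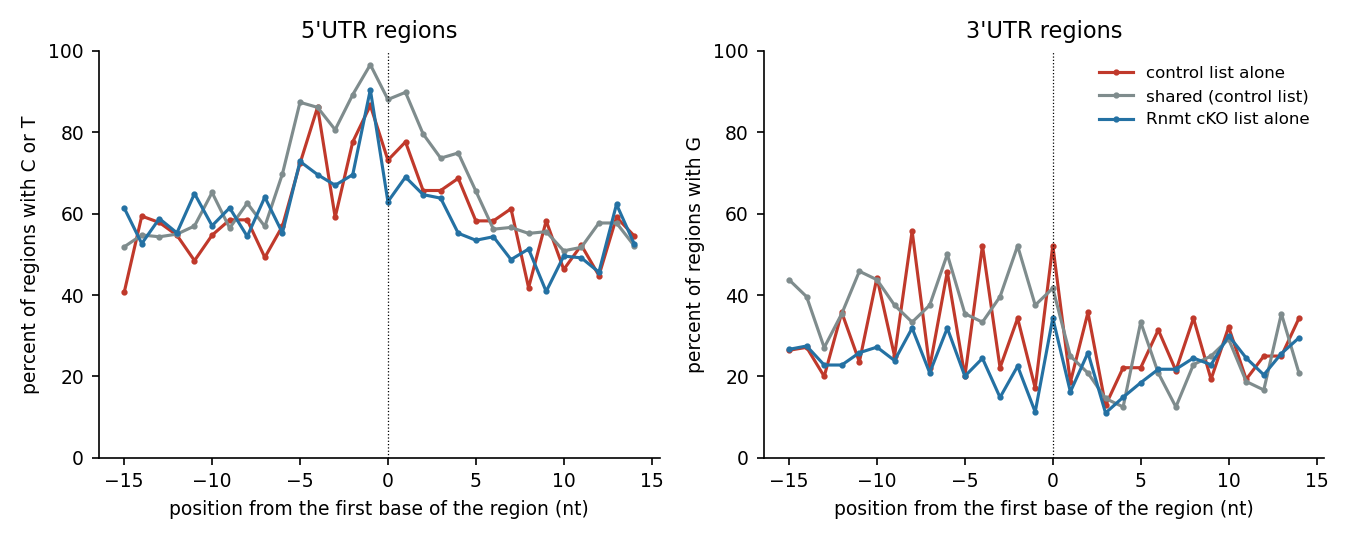
Base composition by position from the first base of the region (nt, dotted line at 0). Left, percent of 5′ UTR regions with C or T; right, percent of 3′ UTR regions with G, where the control list alone alternated between higher and lower values, with 55.7% at 8 nt before the first base and 52.1% at 4 nt before it and at the first base.

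By gene, the highest 5′ UTR score after Cwc22, whose window held the run, was that of Imp3, a protein of the U3 snoRNP that processes the small subunit rRNA, with a score of 46.9 over 4 sites at 12 nt from the start. Taf1d, a subunit of the RNA polymerase I factor SL1 and a snoRNA host, had 42.8 over 2 sites at 2 nt. Fau, which encodes a ubiquitin-like protein fused to ribosomal protein S30, had 31.9 at 95 nt from the nearest start. Fnbp1, which links membranes to actin, had 29.1 at 1 nt. Imp3, Taf1d and Cwc22 had 0 exonic Rnmt cKO regions, whereas Fau had 3 and Fnbp1 had 8 elsewhere.

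Ribosomal protein mRNAs, the best known targets of LARP1, were few among these regions. Of 204 exonic control regions in cytosolic ribosomal protein genes 16 were in the control list alone, or 7.84% (4.89 to 12.4%), against 45.6% for all exonic control regions. Of the 16, 14 were in the CDS and 2 in 5′ UTRs. All 14 genes had an exonic Rnmt cKO region at another place, and 12 of them had a shared region. The median score was 8.58, against 96.6 for the shared regions of the list. Among the highest were Fau (31.9), Rps14 (22.96) and Rplp0 (16.8), followed by Rpl30 (16.8), Rpl5 (13.4), Rpl9 (10.9), Rps4x (10.1), Rps19 (7.10) and Rpl6 (6.43). The Rpl5 region was 2 sites next to the annotated start, in the TC of the window shown above. None of the 16 held the run.

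Other genes with TOP starts gave 10 of 54 regions, or 18.5% (10.4 to 30.8%). Of these 10 regions 0 were in 5′ UTRs, 6 were in the CDS, 1 in a 3′ UTR and 3 in non-coding exons. The highest was Snhg1, a non-coding host of snoRNAs, with 39.2 over 2 sites at 4 nt from a start, and it was the 1 gene of the 10 with no exonic Rnmt cKO region. The others included Tpt1, a TOP mRNA for a growth-related protein, with 6.96 in a non-coding exon, and Eif3k, a subunit of initiation factor eIF3, with 4.27. Of the 10 genes 7 had a shared region as well. Over all snoRNA hosts, 20 of 121 exonic control regions were in the control list alone, in 18 host genes.

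**Figure D5:**
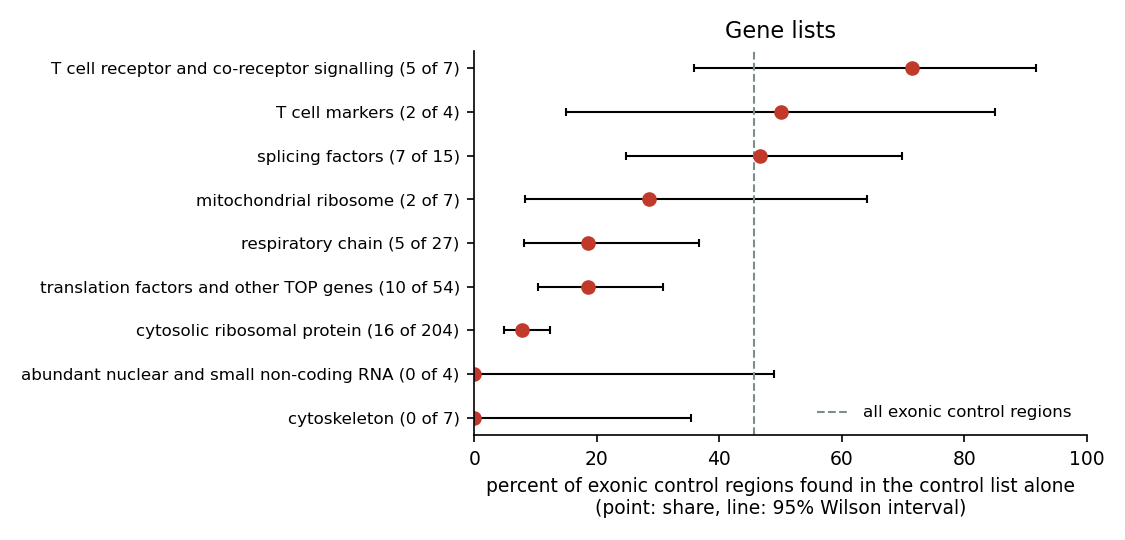
Share of the exonic control regions of each gene list that were in the control list alone (percent, points, with 95% Wilson intervals), for lists with at least 4 such regions. The dashed line is the share over all exonic control regions, 45.6%, and the ribosomal protein list is at 7.84%.

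Genes for mitochondrial proteins were also mostly shared. The respiratory chain list gave 5 of 27 regions, or 18.5% (8.18 to 36.7%). Of these Atp5d and Atp5e, subunits of ATP synthase, had 2.69 at 27 nt and 1.73 at 3 nt from a start. Ndufv3, a subunit of complex I, had 0.894 at 23 nt. The mitochondrial ribosome list gave 2 of 7, the Gm38077 region over Mrpl3 and a CDS region of Mrps16 (3.49).

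Splicing factors and T cell genes were at or above the share of all exonic regions, with wide intervals. The splicing factor list gave 7 of 15, or 46.7% (24.8 to 69.9%). Hnrnpa3 had 8.49 within 2 nt of a start and Hnrnpk 6.59 within 7 nt, and both encode hnRNP proteins. Tra2b, a regulator of exon inclusion, had 4.80 in a non-coding exon, and Snrpb2, of the U2 snRNP, had 3.13 at 4 nt with 8 letters of the run. Those letters of Snrpb2, CTCTTCCG, began 4 nt before the first base of the region, and 7 shared windows also held them. The list of T cell receptor and co-receptor signalling genes gave 5 of 7, or 71.4% (35.9 to 91.8%). Cd3d, the delta chain of the CD3 complex, had 4.16 at 3 nt from its start, and an Rnmt cKO region with a score of 74.7 in that list lay 70 nt away. Satb1, a chromatin organiser of T cells, had 1.94. It had 0 exonic Rnmt cKO regions, but an Rnmt cKO region lay elsewhere in its gene body. Other regions of the list were in the 3′ UTRs of Ptprc, which encodes CD45 (11.9), and Bach2, a repressor of effector genes (2.21). The globin gene Hbb-bs had a 5′ UTR region with 0.386 at 6 nt from its start. Lists for mitochondrially encoded genes, MHC class I, cytoskeleton, abundant nuclear RNAs and histones had 0 regions in the control list alone, from 0 to 7 exonic control regions each.

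In 3′ UTRs the sequences were of another kind, rich in T and G, and part of this pattern was also found in non-coding exons. Windows are shown for 3 high-scoring examples, chosen after the values were seen, with the called bases in capitals, since they carry T and G letters in place of the pyrimidine tracts of 5′ UTRs.
Sp1 (chr15:102432721-102432750, plus strand): agtatgggagtggttGAGTGTATGTGTGag
Ddx6 (chr9:44639733-44639762, plus strand): ggtgggaggggagggTactgtgtcccaaaa
Nufip2 (chr11:77710031-77710060, plus strand): tttttaagtgtgaatGcaagtgattaatga

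At 1 nt before the first base 78.6% of the 140 windows had a T, and at 4 nt before it and at the first base 52.1% had a G. The share with a G was highest at 8 nt before the first base, at 55.7%, and was also high at 10 and 6 nt before it, at 44.3% and 45.7%, with lower values between. The letters G, N, N, T, G in these places were in 52 of 140 windows, or 37.1% (29.6 to 45.4%), against 15.1% (11.8 to 19.2%) of the 3′ UTR regions of the Rnmt cKO list alone and 12 of the 48 shared ones (14.9 to 38.8%). The word TGTG in the 15 nt around the first base was in 27.9% (21.1 to 35.8%), 15.9% (12.5 to 20.0%) and 14.6% (7.25 to 27.2%) of these windows. The Rnmt cKO list alone had more T, 46.7% of bases over 15 nt, than the control list alone, with 41.3%. These patterns were sought after the composition had been seen.

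Among the 3′ UTR regions with the highest scores were those of regulators of transcription and of mRNA fate. Sp1, a transcription factor, had 26.6 over 2 sites and 13 nt. Zmat2, a splicing protein, had 24.4. Ddx6 and Lsm14b, both of the machinery that represses and decaps mRNAs, had 22.6 and 22.2. Sp1 and Lsm14b had 0 exonic Rnmt cKO regions, Zmat2 had 1 and Ddx6 had 2.

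To separate another position in a gene found in both lists from a gene found in the control list alone, regions were matched by gene. Of the 377 regions 127 lay in a gene with an exonic Rnmt cKO region, or 33.7% (29.1 to 38.6%). This share was 54.9% (43.4 to 66.0%) in the CDS, 37.1% (29.6 to 45.4%) in 3′ UTRs, 23.9% (15.3 to 35.3%) in 5′ UTRs and 20.2% (13.5 to 29.2%) in non-coding exons. A shared region in the same gene was found for 25 of 71 CDS regions and for 3 of 140 3′ UTR regions. Of the 25 CDS regions 12 were in ribosomal protein genes, and outside that list the count was 13 of 57. For comparison, 457 of the 914 regions of the Rnmt cKO list alone, or 50.0% (46.8 to 53.2%), lay in a gene with an exonic control region.

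Most genes had 1 region of the control list alone, namely 337 of 357, while 16 genes had 2 and 4 had 3. The 4 were Arglu1, a regulator of splicing, Rnf213, a very large ubiquitin ligase, and Kmt2a and Kmt2d, methyltransferases of histone H3. Their scores were between 0.0210 and 8.74. Arglu1 had 4 and Kmt2d had 6 exonic Rnmt cKO regions, and Rnf213 and Kmt2a had 0. The other genes with 2 regions and 0 exonic Rnmt cKO regions were Zfp740, 9330175E14Rik, Pou2f1, Flna, C2cd5, Amn1 and Agap2, with scores from 0.0210 to 10.9. Both regions of Zfp740 (4.91 and 6.05), Pou2f1 (3.13 and 1.63) and Agap2 (1.81 and 0.978) were in 3′ UTRs.

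Some of the regions missed an Rnmt cKO region narrowly. An Rnmt cKO region lay within 30 nt of 22 of the 377, or 5.84% (3.88 to 8.68%), and directly adjoined 7 of them. Adjoining regions with the highest scores were in the 3′ UTR of Msl2, a ubiquitin ligase of a chromatin complex (10.7), in the 5′ UTRs of Fxr1, an RNA-binding protein (5.54), Cd164, a sialomucin (4.80), and Usp3, a deubiquitinase (4.29), and in the CDS of Ino80b, of a chromatin remodeller (2.402). On the other side of the rule, 268 of the 449 shared regions overlapped by 1 nt, of which 247 were 1 nt wide. Of these the highest were the 5′ UTR regions of Chn1 (537), Rpl32 (426), Rack1 (290) and Psmb1 (254) and the CDS region of Rpl9 (307). A 1 nt region can overlap by no more than 1 nt, and the Chn1 region was matched by an Rnmt cKO region of 1 nt. Of the 377 regions 355 had no Rnmt cKO region within 30 nt. None had an Rnmt cKO region within 30 nt on the opposite strand.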

How the data were processed

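LARP1 eCLIP regions of control and Rnmt cKO CD4 T cells were used, 1 list per genotype. The authors extracted barcodes with UMI-tools, trimmed adapters with cutadapt, aligned reads to mm10 with STAR (2.5.2b), removed PCR duplicates with UMI-tools and secondary and low-quality alignments with SAMtools, and called regions with PureCLIP against the size-matched input of the genotype. The deposited score was the sum of the site scores in 5580 of 5580 regions. It depends on each library's model and on no common scale. The authors' later selection by read ratios to input and IgG was not applied to these lists, so that background regions remain. Depth is unknown.

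Overlap, distance, class and gene were computed in Python 3.11.15 with all 141767 transcripts of GENCODE M21, and bases came from its transcripts and from RefSeq promoters (GRCm38.p6). The overlap search and the search for the run were tested on simulated data. Reads of paralogs, pseudogenes and overlapping genes may be misplaced. The members and gene lists were chosen with earlier results of these data known. Genes were named by rule: the 5 highest regions per class, listed genes with a region in a 5′ UTR or non-coding exon (the 10 highest ribosomal protein genes), genes with 3 regions, genes with 2 or more and no exonic Rnmt cKO region, and the 5 nearest regions on either side of the overlap rule. Others are said to be chosen later, and some regions that the rule names are not reported here. Alternatives were a minimum of 2 crosslink sites, scores above the list median, sharing within 30 nt, basic transcripts, omission of repeated scores, of pseudogene and retained intron exons and, added after seeing the data, of regions with the run, and a 20 nt limit for starts and a 7 nt window.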

Additional observations from a re-analysis of the deposited data

How the results depend on the processing

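No paired analysis was possible because there was 1 LARP1 library of either genotype, and for the same reason no library could be left out. Of 57 values recomputed under the alternatives, 20 moved beyond their counting interval or by over 1.5 times. With a minimum of 2 crosslink sites in both lists 44 regions remained in the control list alone, or 18.8% of exonic control regions, of which 50.0% were in 5′ UTRs, 54.5% were near a transcript start, 25% lay in a gene with an exonic Rnmt cKO region and 0% lay within 30 nt of an Rnmt cKO region, with 74.1% pyrimidines in 5′ UTR windows and a median percentile of 22.8 among the regions kept. With scores above the list median, 130 regions or 27.8% remained, with 29.2% in 5′ UTRs, 28.5% near a start, 19.2% in a gene with an exonic Rnmt cKO region, 1.54% within 30 nt of one, 71.4% pyrimidines and a median percentile of 22.5. With basic transcripts 41.5% of exonic control regions were in the control list alone. A limit of 20 nt for a start gave 12.5%, against 18.8% at 50 nt. A 7 nt window gave 72.2% pyrimidines. Without repeated scores the median percentile was 29.3. Omission of the regions with the run left 339 regions and moved none of the 8 results beyond its interval.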

Other observations

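The non-coding exons with a region in the control list alone were mostly parts of protein-coding genes. Of the 99 regions 51 lay in retained introns of protein-coding genes, 11 in transcripts of the GENCODE type TEC, which await experimental evidence, 10 in lincRNAs and 7 in processed pseudogenes. The scores repeated in the control list were spread over 10 values in these regions. The commonest, 1.31, was found in 14 of the 377 regions and in 344 regions of the control list, and the next, 1.01, in 5 and 28.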
